A study of Mus musculus with 16 samples.

Results

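Endothelial and blood-brain barrier genes of the mouse spinal cord were followed through 10 named genes, taken by symbol from a table of 18167 genes measured in 16 mice. They were *Apln*, *Aplnr*, *Cldn5*, *Pecam1*, *Slc2a1*, *Mfsd2a*, *Abcb1a*, *Tek*, *Flt1* and *Kdr*. All 10 had a row in the table, from which the authors had removed genes listed at 0 in at least 8 mice. *Apln* was chosen by its decrease in mutant mice at end stage, so its differences that involve end-stage mutant mice are given as a description with no test. The other 9 genes were named for what they do in vessels, with earlier results of these data known.

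The vessels of the brain and spinal cord are lined by endothelial cells sealed to each other by tight junctions, and these cells carry nutrients in and pump foreign compounds out through dedicated transporters. VEGF and angiopoietins act on receptor tyrosine kinases of the endothelium to control its growth, survival and permeability. Apelin is a peptide made by several cell types, the tip cells of growing vessels among them, and acts on a G protein-coupled receptor that endothelial cells carry.

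Every mouse carried a human *PFN1* transgene driven by the mouse *Prnp* promoter, which is active in neurons and in many other cells, and no mouse without a transgene was included. On a C57BL/6N background, young (WY) and old (WO) wild-type mice carried unchanged human profilin1 in the line Tg(Prnp-PFN1)850Kiaei. Young (MY) and old (MO) mutant mice carried the G118V form, a model of amyotrophic lateral sclerosis, in the line Tg(Prnp-PFN1*G118V)838Kiaei. The 3 WY and 3 MY mice were 50 days old, an age before symptoms. The 5 MO mice were at end stage, at 175 to 245 days, and the 5 WO mice were 190 to 294 days old. Each genotype was represented by 1 transgenic line, so the G118V change cannot be told apart from the line that carries it. All WY and MY libraries belonged to batch 1, while WO and MO each had 3 libraries in batch 1 (replicates 1 to 3) and 2 in batch 2 (replicates 4 and 5).

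Poly(A) RNA of the whole spinal cord was sequenced, 1 library per mouse. Each value is log2(1 + FPKM) after the authors' adjustment for library batch, where FPKM counts fragments scaled by transcript length and by library size, and FPKM itself was recovered by undoing the log2 step. No counts were used, so the depth behind a single value is unknown and precision rests on the spread between mice. Differential expression meant passing 2 thresholds, a limma false discovery rate (FDR) of 0.05 and a change of 1.5-fold, or 0.58 in log2, and calls by FDR alone are given beside these. Differences are the second group minus the first on the log2(1 + FPKM) scale, which understates the change of genes at low FPKM such as *Kdr* and *Tek*. The comparisons share their groups, so a high or low WO or MO mean enters several of them.

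Hox genes matched the spinal cord label. *Hoxb8* lay between 5.44 and 5.95 in all 16 mice, whereas the forebrain gene *Emx1* did not exceed 0.20 and another, *Neurod6*, lay between 1.39 and 1.73. All mice were labelled male, and 1 library went against that label. In MO5 the level of *Xist*, which is transcribed from the inactive X chromosome of females, was 3.21, whereas no other mouse exceeded 0.37. The Y-linked gene *Ddx3y* was at 1.95 in MO5 and at 4.06 or more in the other 15 mice. *Apln* is itself X-linked, and the fits of the 10 genes and of the gene lists below were therefore also run without MO5. WO4 stood apart in *Mbp*, a myelin gene, with 39.9 FPKM against 4571 FPKM or more in each of the other 15 mice. The other 3 mice of batch 2 had 17724 to 19069 FPKM of *Mbp*, and the mice of batch 1 no more than 9632 FPKM. The cause was not tested, and the same fits were also run without WO4.

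Per kilobase of transcript, the carriers of glucose and lipid stood highest. In WY mice *Slc2a1*, the glucose transporter of barrier endothelium, had a mean of 70.6 ± 12.2 FPKM (SD, n = 3). *Mfsd2a* followed at 30.6 ± 0.97 FPKM, *Apln* at 26.2 ± 1.11 FPKM and *Cldn5* at 22.6 ± 2.99 FPKM. The ranges of *Apln* and *Cldn5* overlapped, while *Slc2a1* and *Mfsd2a* each stood clear of the next gene. *Aplnr* was at 9.55 ± 0.99 FPKM, and *Abcb1a*, *Pecam1* and *Flt1* formed a group with overlapping ranges at 6.90, 6.12 and 6.04 FPKM. *Tek* (3.46 ± 0.20 FPKM) and *Kdr* (1.90 ± 0.21 FPKM) were the lowest. In MO mice *Apln* stood at 12.4 ± 2.65 FPKM (SD, n = 5), below *Cldn5* at 16.6 ± 3.45 FPKM, although their ranges overlapped.

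**Figure D1:**
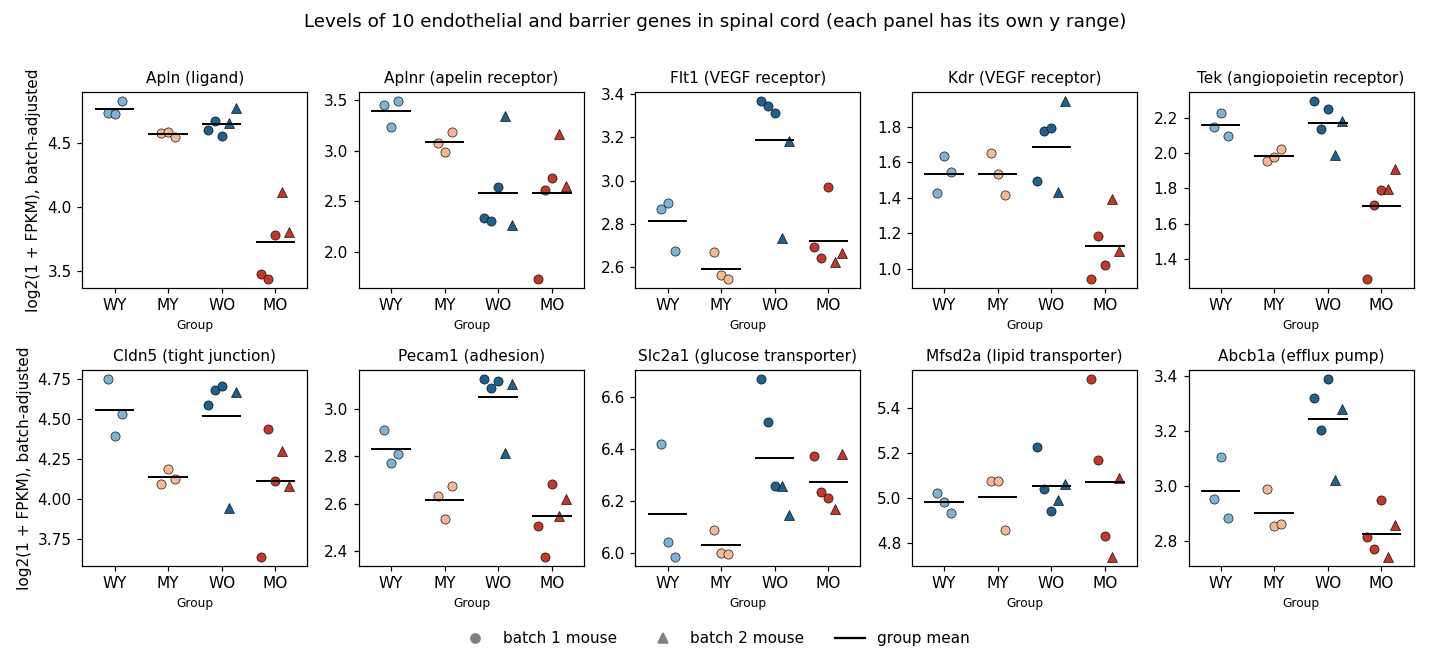
Levels of the 10 genes on the log2(1 + FPKM) scale (y axis) in each mouse of the 4 groups (x axis), with circles for batch 1, triangles for batch 2 and a black line at the group mean. *Apln* lay between 3.44 and 4.12 in the 5 MO mice and between 4.55 and 4.83 in the other 11 mice, and WO4 was the lowest WO mouse for *Cldn5*, *Pecam1*, *Flt1*, *Abcb1a*, *Tek* and *Kdr*.

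In WO vs. MO, which compares end-stage mutant mice with old wild-type mice, endothelial receptor and adhesion genes and an efflux pump were lower in MO, while the tight junction gene *Cldn5*, the apelin receptor and the carriers of glucose and lipid did not pass. *Pecam1*, *Abcb1a*, *Kdr*, *Tek* and *Flt1* passed the FDR, 5 of the 9 genes other than *Apln*, all lower in MO. Over all 18167 genes 27.9% passed, 12.9% lower and 15.0% higher in MO. None of the 9 passed the FDR together with the 1.5-fold threshold, which 4.60% of all genes did. In limma 6 of the 9 had an unadjusted p under 0.05, as did 6986 of all 18167 genes. For 4 of the 9 (*Pecam1*, *Abcb1a*, *Tek* and *Kdr*) every MO mouse lay below every WO mouse, and 19.9% of all genes were separated in either direction. Since *Apln* was chosen in this contrast and the others with its results known, nothing is read from these shares. The median difference of the 9 genes was -0.42, against 0.00 over all genes. Quantile normalization turned the FDR calls over all genes from 2730 higher and 2345 lower to 2341 higher and 3409 lower, and the 5 genes passed under it as well. Without MO5 the same 5 genes passed.

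MY vs. MO compares mutant mice at the young age and at end stage. *Kdr*, lower in MO, and *Slc2a1*, higher in MO, passed the FDR among the 9 genes, in a comparison where 25.6% of all genes passed, 12.5% lower and 13.1% higher. None of the 9 passed both thresholds, which 4.90% of all genes did. *Slc2a1*, *Tek* and *Kdr*, 3 of the 9, were separated between the groups without overlap, against 31.6% of all genes. As this contrast also holds the MO mice that chose *Apln*, nothing is read from these shares either. The median difference of the 9 genes was -0.07. Here quantile normalization moved the FDR calls from 2377 higher and 2269 lower to 2068 higher and 3179 lower, and under it *Slc2a1* no longer passed (FDR 0.0660) while *Tek* did (FDR 0.0454). Without MO5 *Kdr* (-0.40, FDR 0.0402) and *Slc2a1* (0.22, FDR 0.0342) passed.

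In WY vs. WO, the difference with age in wild-type mice, 0 of the 10 genes passed the FDR in limma, where 1.12% of all genes did. Likewise 0 passed both thresholds, against 0.253% of all genes, and the groups overlapped for all 10, while 9.67% of all genes did not overlap. An unadjusted p under 0.05 was found for 4 of the 10 (*Aplnr*, *Pecam1*, *Abcb1a* and *Flt1*) and for 2447 of all 18167 genes.

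In WY vs. MY, the genotype difference before symptoms, 0 of the 10 genes passed in limma, and 1 of all genes did (0.00550% by FDR alone and 0.00550% by both thresholds). An unadjusted p under 0.05 was found for 6 of the 10 and for 1301 of all 18167 genes. In the same 6 genes, *Apln*, *Aplnr*, *Cldn5*, *Pecam1*, *Tek* and *Flt1*, all 3 MY mice lay below all 3 WY mice, whereas 7.52% of all genes were separated in that direction and 13.7% in either direction. With 9 of the 10 differences negative, their median was -0.18, against 0.00 over all genes, and no test was made over the genes together. The MY values of *Apln* entered its choice. Among the 9 other genes, 5 were separated in that direction and 8 were negative, with a median of -0.17.

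**Figure D2:**
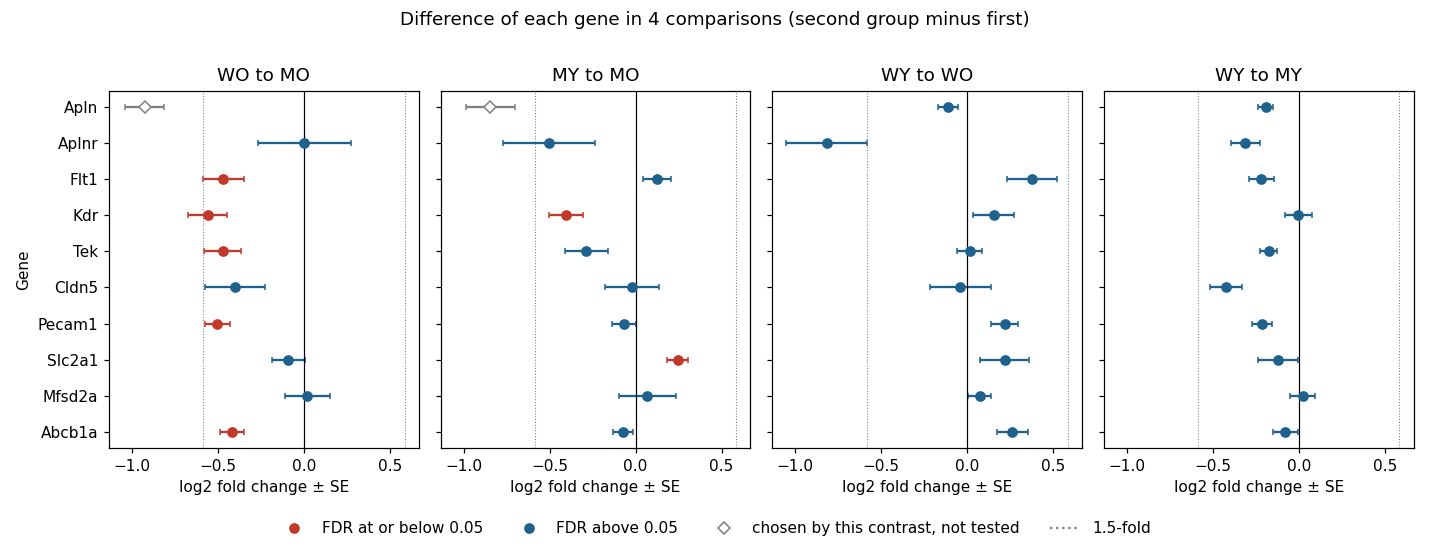
Difference of each gene on the log2(1 + FPKM) scale with its SE (x axis) in the 4 comparisons, given as the later group of each pair minus the earlier. Red circles passed the FDR, blue circles did not, grey diamonds mark *Apln* where that contrast chose it, and dotted lines stand at 1.5-fold. All 5 red circles of WO to MO lie between -0.56 and -0.42, to the right of the dotted line.

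*Apln*, the gene of the ligand apelin, had the values 4.73, 4.73 and 4.83 in the WY mice and 4.58, 4.59 and 4.55 in the MY mice. In the WO mice it was at 4.60, 4.67, 4.56, 4.66 and 4.77, and in the MO mice at 3.48, 3.44, 3.78, 4.12 and 3.81. The 11 mice of the other groups lay within 0.28 of each other, whereas all 5 MO mice lay lower and were spread over 0.68. From a WO mean of 4.65 ± 0.08 (SD, n = 5) and an MY mean of 4.57 ± 0.02 (SD, n = 3), the MO mean of 3.73 ± 0.28 (SD, n = 5) differed by -0.93 and -0.85, the decrease on which the gene was selected. MO minus WO was -1.04 within batch 1 and -0.75 within batch 2, with no overlap in either. Without MO5 it was -0.95, and MO minus MY was -0.87.

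Outside the contrasts that chose it, *Apln* had a difference of -0.11 ± 0.06 (SE) in WY vs. WO (FDR 0.450). In WY vs. MY the difference was -0.19 ± 0.05 and did not pass (FDR 0.550). The WO and MY values of *Apln* also entered its choice, so these results are not independent of it.

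Over the 16 mice and 13530 genes with a mean log2 value of at least 1, the genes whose levels were most like those of *Apln* were *Chodl* (r = 0.973), *Slc6a9* (r = 0.973), *Abcb9* (r = 0.968), *Unc5b* (r = 0.967) and *Mmp15* (r = 0.966). These coefficients describe a pattern that sets 5 MO mice apart from the rest, and they carry no test. Without MO5 the 5 coefficients lay between 0.9659 and 0.9748. *Chodl*, a membrane protein known as a marker of fast motor neurons, had a mean of 4.44 ± 0.10 (SD, n = 5) in WO and 2.70 ± 0.49 in MO. *Unc5b*, a netrin receptor of endothelial tip cells that neurons also express, had a mean of 4.21 ± 0.10 in WO and 3.39 ± 0.35 in MO. *Slc6a9* encodes a glycine transporter and *Mmp15* a membrane-bound matrix metalloproteinase.

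*Aplnr* encodes the receptor of apelin. Its values were 3.45, 3.24 and 3.50 in WY, and 3.08, 2.99 and 3.18 in MY. They were 2.33, 2.31, 2.64, 3.34 and 2.27 in WO, and 1.73, 2.62, 2.73, 3.17 and 2.65 in MO. Both old groups had lower means and a wider spread than the young ones, and in each of them replicate 4 was the highest mouse. WO and MO, at 2.58 ± 0.45 and 2.58 ± 0.52 (SD, n = 5), differed by 0.00 ± 0.27 (SE, FDR 0.998), and the 95% interval of the difference from -0.60 to 0.60 spans the 1.5-fold threshold on both sides. The sign of this difference turned negative in batch 1 alone, after quantile normalization, with log2(FPKM + 0.1) and in 7 of the 10 fits that left out 1 mouse, that without MO5 among them.

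In WY vs. WO the difference of *Aplnr* was -0.82 ± 0.24 (SE), the largest in size among the 10 genes in this comparison, and it did not pass (FDR 0.168). WO4 lay inside the WY range here. Without WO4 the difference was -1.01 (FDR 0.0110), and with batch 1 alone it was -0.97 (FDR 0.0234). The difference did not pass with batch as a term or in the fit of all 4 groups. Nor did it pass after quantile normalization, with log2(FPKM + 0.1), with an intensity trend or among genes with a mean of at least 1. With the replicate number as a block it was -0.97 (FDR 0.0324) in a fit where WO4 and WO5 have no WY partner and drop out, and over all alternatives that left out 1 mouse it passed without WO4 only. The MY vs. MO difference was -0.50 ± 0.27 (FDR 0.213). Of the listed apelin system genes, the second ligand *Apela*, the convertase *Furin* and the peptidase *Mme* did not pass the FDR in any of the 4 comparisons.

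*Flt1*, *Kdr* and *Tek* encode receptor tyrosine kinases of the endothelium, VEGF receptors 1 and 2 and the angiopoietin receptor Tie2, and all were lower in MO than in WO. *Flt1* was at 3.37, 3.35, 3.31, 2.74 and 3.18 in WO and at 2.69, 2.64, 2.97, 2.63 and 2.66 in MO. In WO4 it lay among the MO mice, while the other 4 WO mice lay above all MO mice. The difference was -0.47 ± 0.12 (SE, FDR 0.0144), at -0.57 within batch 1 and -0.31 within batch 2. In whole spinal cord, fewer endothelial cells and less RNA per endothelial cell cannot be told apart, here or in the results that follow.

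The young values of *Flt1* were 2.87, 2.89 and 2.68 in WY and 2.67, 2.56 and 2.55 in MY. The MO mean stood 0.13 ± 0.08 above MY (SE, FDR 0.312), and the WO mean, the highest of the 4, stood 0.38 ± 0.14 above WY (FDR 0.286). The WO difference from WY passed without WO4 (0.49, FDR 0.0302) and in batch 1 alone (0.53, FDR 0.0335).

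*Kdr* was at 1.43, 1.63 and 1.54 in WY and at 1.65, 1.53 and 1.42 in MY. In WO it was at 1.49, 1.78, 1.79, 1.43 and 1.95, and in MO at 0.94, 1.19, 1.02, 1.39 and 1.10. All 5 MO mice lay below all 11 others, with MO4 closest to them. The difference was -0.56 ± 0.11 (SE, FDR 0.00374) in WO vs. MO and -0.40 ± 0.10 (FDR 0.0201) in MY vs. MO. On the scale of log2(FPKM + 0.1) the WO vs. MO difference was -0.86, past the 1.5-fold threshold. The MY vs. MO call was lost without MY1 (FDR 0.0914) or without MY2 (FDR 0.0649).

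*Tek* was at 2.15, 2.23 and 2.09 in WY and at 1.95, 1.98 and 2.02 in MY. In WO it was at 2.30, 2.14, 2.25, 1.99 and 2.18, and in MO at 1.29, 1.70, 1.79, 1.80 and 1.91. The MO mice again lay below all others, and MO1 was the lowest by a wide gap. The difference was -0.47 ± 0.11 (SE, FDR 0.00818) in WO vs. MO, with -0.63 within batch 1 and -0.23 within batch 2. The MY vs. MO difference of -0.29 ± 0.13 did not pass (FDR 0.137), although it did without MO1 (-0.18, FDR 0.0386).

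*Pecam1*, an adhesion molecule of endothelial cell contacts that platelets and leukocytes also carry, was at 3.13, 3.09, 3.12, 2.81 and 3.10 in WO and at 2.51, 2.38, 2.68, 2.55 and 2.62 in MO. It was at 2.91, 2.77 and 2.81 in WY and at 2.64, 2.54 and 2.67 in MY. Every MO mouse lay below every WO mouse, while MO and MY overlapped. The difference was -0.50 ± 0.07 (SE, FDR 0.000615) in WO vs. MO, with -0.59 within batch 1 and -0.37 within batch 2, whereas it was -0.07 ± 0.07 (FDR 0.544) in MY vs. MO. The WO mean stood 0.22 ± 0.08 above WY (FDR 0.260), and 0.28 above without WO4 (FDR 0.0487).

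*Cldn5*, the main claudin of the barrier's tight junctions, was at 4.75, 4.39 and 4.53 in WY and at 4.09, 4.18 and 4.12 in MY. In WO it was at 4.58, 4.68, 4.70, 3.94 and 4.67, and in MO at 3.64, 4.44, 4.11, 4.30 and 4.08. Both mutant groups had means near 4.1 and both wild-type groups means near 4.5, with WO4 low among the latter. In WO vs. MO the difference was -0.40 ± 0.17 (SE) and did not pass (FDR 0.115), but it passed without WO4 (-0.55, FDR 0.0173) and with the WO mice of 190 days only, an alternative chosen after seeing the data (-0.54, FDR 0.0470). Within batch 1 it was -0.59 with no overlap, and within batch 2, which holds WO4, -0.12. In WY vs. MY it was -0.42 ± 0.09, the largest in size among the 10 genes in that comparison (FDR 0.534), and in MY vs. MO it was -0.02 ± 0.16 (FDR 0.945).

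*Abcb1a*, the efflux pump P-glycoprotein of barrier endothelium, was at 3.32, 3.20, 3.39, 3.02 and 3.28 in WO and at 2.81, 2.77, 2.95, 2.74 and 2.86 in MO. It was at 2.95, 3.10 and 2.88 in WY and at 2.99, 2.85 and 2.86 in MY. The WO mice lay above all MO and MY mice, and MO lay within or below the young range. The difference was -0.42 ± 0.07 (SE, FDR 0.00122) in WO vs. MO and -0.08 ± 0.06 (FDR 0.398) in MY vs. MO. Its neighbour *Abcb1b*, chosen for mention after its values were seen, encodes a closely related pump and rose, from 1.12 ± 0.07 in WO to 1.49 ± 0.16 in MO (0.38 ± 0.07, FDR 0.00344). As the sequences of these paralogs are much alike and how shared fragments were assigned is not given in the sources used here, both values are uncertain.

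*Slc2a1* was at 6.42, 6.04 and 5.98 in WY and at 6.09, 6.00 and 6.00 in MY. In WO it was at 6.67, 6.50, 6.26, 6.25 and 6.14, and in MO at 6.37, 6.23, 6.21, 6.17 and 6.38. The MO mice lay inside the WO range and above all 3 MY mice. The difference was -0.09 ± 0.10 (SE, FDR 0.537) in WO vs. MO and 0.24 ± 0.06 (FDR 0.0201) in MY vs. MO. The latter call was lost in the fit of all 4 groups (FDR 0.140), after quantile normalization, without MY2 (FDR 0.0773) and without MY3 (FDR 0.0822).

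*Mfsd2a*, the carrier of docosahexaenoic acid whose loss opens the barrier to vesicle transport in mice, had group means from 4.98 in WY to 5.07 in MO. It passed in none of the comparisons, and its difference in WO vs. MO was 0.02 ± 0.13 (SE, FDR 0.942), with a 95% interval from -0.27 to 0.31 that lies inside 1.5-fold. MO mice were spread most widely, from 4.74 in MO4 to 5.53 in MO1.

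The difference with age was compared between genotypes as (MO - MY) - (WO - WY) in 1 fit of all 16 mice. It passed for *Kdr* (-0.56 ± 0.17, SE, FDR 0.0309) and *Abcb1a* (-0.34 ± 0.11, FDR 0.0439), 2 of the 9 genes, while 17.7% of all genes passed. For *Kdr* the mean fell with age in mutant mice, and in wild-type mice it was 0.15 ± 0.12 higher in WO than in WY (FDR 0.662). For *Abcb1a* the WO mean was 0.26 ± 0.09 above WY (FDR 0.230), and the MO mean was close to that of MY. The value of *Pecam1* was -0.29 ± 0.11 (FDR 0.0849), and *Flt1*, *Tek*, *Aplnr*, *Cldn5*, *Slc2a1* and *Mfsd2a* lay between -0.30 and 0.31. Both calls rest on few mice. *Kdr* did not pass without any of WY1, WY3, MY1, MY2, WO2, WO3 or MO3 (FDR up to 0.0892), and *Abcb1a* did not pass in 13 of the 16 fits that left out 1 mouse (FDR up to 0.124), among them the fit without MO5 (FDR 0.0539), passing only without WY2, WO4 or MO3. The *Abcb1a* call was also lost with log2(FPKM + 0.1) (FDR 0.0566) and with an intensity trend (FDR 0.0511). Without WO4 *Pecam1* (-0.35, FDR 0.0169) and *Flt1* (-0.36, FDR 0.0472) passed as well. *Pecam1* also passed in batch 1 alone (-0.37, FDR 0.0406) and after quantile normalization (-0.34, FDR 0.0426). For *Apln* the value was -0.73, part of the pattern that chose it.

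Over the deviations of the 16 mice from their group means, the median Pearson coefficient of the 45 pairs of genes was 0.17, and 14 pairs were negative, each of which held *Apln*, *Aplnr*, *Slc2a1* or *Mfsd2a*. Among the other 6 genes, grouped after the values were seen, all 15 pairs were positive (r from 0.14 to 0.84, median 0.43). *Abcb1a* and *Flt1* (r = 0.84), *Pecam1* and *Flt1* (r = 0.76), *Pecam1* and *Abcb1a* (r = 0.65), *Cldn5* and *Tek* (r = 0.64), *Cldn5* and *Kdr* (r = 0.58) and *Apln* and *Aplnr* (r = 0.51) were most alike. *Mfsd2a* moved against *Aplnr* (r = -0.76) and *Apln* (r = -0.70). These values describe mice that share a library and its depth across genes, and carry no test. The 5 genes whose deviations were most like those of *Cldn5* were *Snrpc*, *Mrps16*, *Timm10b*, *Mrps24* and *Psmb1* (r from 0.860 to 0.870), which encode parts of the spliceosome, the mitochondrial ribosome, mitochondrial import and the proteasome.

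Single mice stood out across several genes. WO4 was the lowest WO mouse in 6 of the 10 genes and the highest in *Aplnr*. MO1 was the lowest MO mouse for *Aplnr*, *Cldn5*, *Tek* and *Kdr* and the highest for *Mfsd2a*, and MO4 was the lowest for *Slc2a1*, *Mfsd2a*, *Abcb1a* and *Flt1* and the highest for *Apln*, *Aplnr* and *Kdr*.

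Counts of gene lists stand against all genes, of which 12.9% were lower and 15.0% higher in MO by FDR in WO vs. MO, and 12.5% and 13.1% in MY vs. MO. Several list counts lie near these shares, and no list was tested as a whole. Of 20 endothelial genes beyond the 10, 11 fell and 2 rose by FDR in WO vs. MO, and their median difference was -0.39 against 0.00 over all genes. From MY to MO 0 fell and 3 rose, with a median of -0.02. Past both thresholds were *Itm2a* (-0.62 ± 0.18, SE, FDR 0.0285) and, in the other direction, *Cd34* (1.21 ± 0.13, FDR 8.12e-05), a sialomucin that blood-forming cells also carry. From MY to MO *Cd34* rose by 1.38 ± 0.10 (FDR 0.000212) and *Fli1*, an ETS factor of endothelial and blood cells, by 0.64 ± 0.09 (FDR 0.00207). In WY vs. MY 19 of the 20 differences were negative, with a median of -0.15 against 0.00 over all genes, and 0 passed. The lean was not particular to this list. Among the lists below, 9 of 9 tip cell, 15 of 17 barrier carrier and receptor and 5 of 5 red cell differences were negative. By contrast, 0 of 6 general neuron and 0 of 5 motor neuron differences were.

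Of 12 further VEGF and angiopoietin genes, 4 fell and 2 rose by FDR in WO vs. MO. The ligand gene *Vegfa* fell by 0.72 ± 0.12 (SE, FDR 0.00157), from 4.78 ± 0.15 in WO to 4.06 ± 0.27 in MO (SD, n = 5). The angiopoietin gene *Angpt1*, whose product activates Tie2, rose by 0.80 ± 0.13 (FDR 0.00105) in WO vs. MO and by 0.78 ± 0.13 (FDR 0.00379) in MY vs. MO. Of the 12, 2 rose and 0 fell in MY vs. MO.

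Among 11 tight and adherens junction genes beside *Cldn5*, 4 fell and 1 rose in WO vs. MO, and 0 fell and 1 rose in MY vs. MO. The gene that rose was *F11r*, which encodes the junctional adhesion molecule JAM-A of endothelium, epithelium and leukocytes, by 0.68 ± 0.10 (SE, FDR 0.000581) and 0.74 ± 0.12 (FDR 0.00309). Of 17 further barrier carriers and receptors, 5 rose and 3 fell in WO vs. MO, and 6 rose and 0 fell in MY vs. MO. The thyroid hormone transporter gene *Slco1c1* fell by 0.61 ± 0.12 (FDR 0.00299) in WO vs. MO. *Slco2b1*, an organic anion transporter gene that microglia also express, rose by 0.71 ± 0.09 (FDR 0.000192) and, in MY vs. MO, by 0.79 ± 0.07 (FDR 0.000302). In WY vs. WO the monocarboxylate transporter gene *Slc16a1* alone passed the FDR among these vascular lists (-0.38 ± 0.06, FDR 0.0396), and it is named after its values were seen.

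Of 5 genes of caveolae and fenestrae, 2 rose and 1 fell in WO vs. MO, led by *Cav2* (0.61 ± 0.10, SE, FDR 0.000878). From MY to MO 2 rose and 0 fell, led by *Ptrf* (0.71 ± 0.13, FDR 0.00479), which encodes a coat protein of caveolae. Of 17 genes of Wnt signaling at the barrier, 4 rose and 1 fell in WO vs. MO and 2 rose and 1 fell in MY vs. MO, with no call past both thresholds and list medians of 0.00 and 0.03. Among 12 artery and vein genes 1 rose and 3 fell in WO vs. MO, and 0 passed in MY vs. MO.

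Tip cell and activation genes were split. Of 9 tip cell genes, 3 rose and 2 fell in WO vs. MO, and 3 rose and 1 fell in MY vs. MO. *Unc5b* fell by 0.82 ± 0.14 (SE, FDR 0.00186), whereas *Plaur* (1.40 ± 0.15, FDR 8.40e-05) and the chemokine receptor gene *Cxcr4* (1.33 ± 0.23, FDR 0.00156), both also expressed by leukocytes, rose. Of 10 measured activation genes 3 rose and 4 fell in WO vs. MO, and 3 rose and 1 fell in MY vs. MO. Among those that rose past both thresholds in WO vs. MO were the adhesion gene *Icam1* (1.48 ± 0.14, FDR 3.81e-05) and the protein C receptor gene *Procr* (0.90 ± 0.09, FDR 7.85e-05). From MY to MO these 5 genes moved likewise, *Unc5b* by -0.92 ± 0.18, *Plaur* by 1.43 ± 0.13, *Cxcr4* by 1.21 ± 0.26, *Icam1* by 1.56 ± 0.14 and *Procr* by 0.87 ± 0.15 (FDR at most 0.0103). The selectin gene *Sele* stayed below 0.1 FPKM in every mouse.

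**Figure D3:**
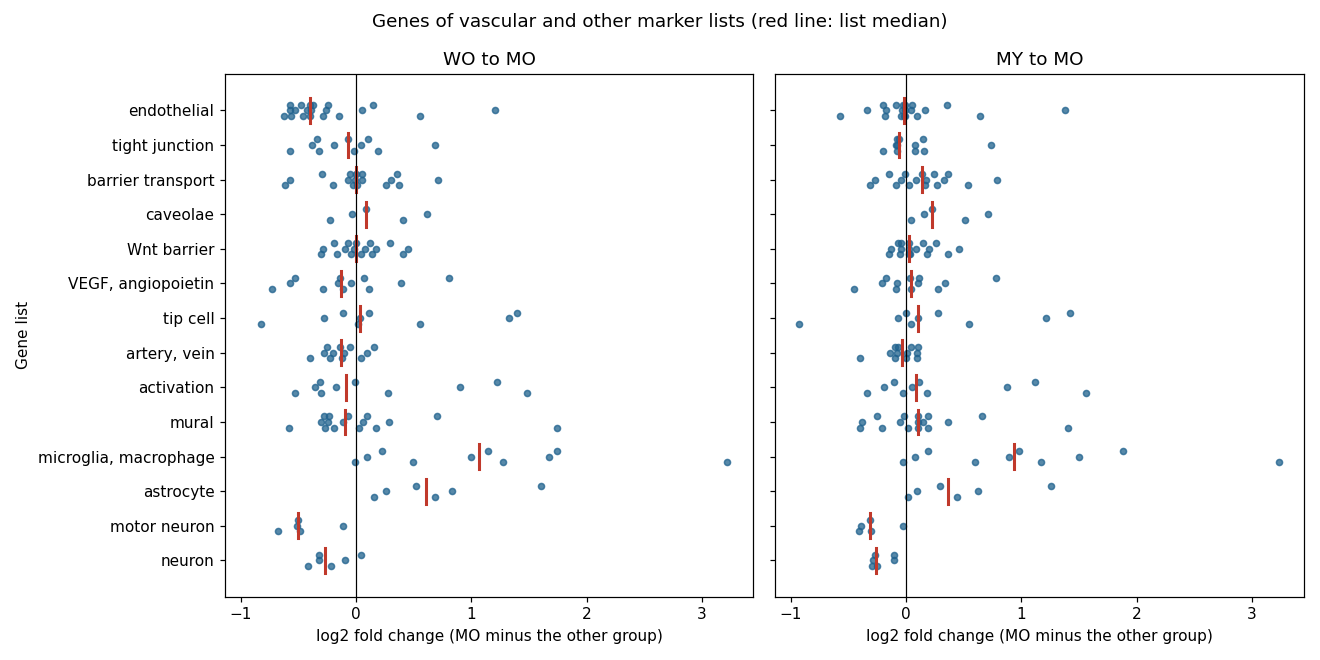
Difference of each gene (point) of 14 lists on the log2(1 + FPKM) scale in WO vs. MO and MY vs. MO, with a red line at the list's median. The median of the 20 endothelial genes was -0.39 in WO vs. MO and -0.02 in MY vs. MO, while that of the 10 microglia and macrophage genes was 1.07 and 0.94.

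Genes of cells around the endothelium were counted next. Of 16 mural genes, which mark pericytes and smooth muscle, 3 rose and 4 fell in WO vs. MO, with a median of -0.09, and 2 rose and 2 fell in MY vs. MO. Past both thresholds were the actin-binding gene *Tagln* (1.75 ± 0.16, SE, FDR 3.63e-05) and the pericyte aminopeptidase gene *Anpep* (0.70 ± 0.18, FDR 0.0128), which myeloid cells also express, and *Tagln* rose by 1.40 ± 0.15 (FDR 0.000566) in MY vs. MO. None of the mural genes that fell passed both thresholds. The mural gene *Rgs5*, named after its values were seen, had a mean of 4.72 ± 0.19 in WO and 4.14 ± 0.31 in MO (SD, n = 5). The summed FPKM of the 16 mural genes, of which *Mcam* was the most abundant, was 114.5, 109.0, 117.6, 94.0 and 108.0 in WO and 86.9, 95.6, 110.3, 120.5 and 120.0 in MO, and it was 116.4, 112.0 and 111.1 in WY and 102.4, 110.9 and 104.8 in MY. WO4 and MO1 were the lowest of their groups, as they were for *Cldn5*. The rise of *Tagln*, from a mean of 5.31 FPKM in WO to 20.2 FPKM in MO, is part of these sums. *Mcam* had means of 27.8 FPKM in WO and 23.3 FPKM in MO. Of 9 fibroblast genes 0 passed in any comparison.

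Summed over the 20 endothelial genes, FPKM was 241, 225, 212, 163 and 185 in WO and 142, 159, 173, 186 and 179 in MO. It was 214, 165 and 177 in WY and 165, 173 and 157 in MY, with *Ly6c1* as the most abundant gene and none of the 20 below 0.1 FPKM in every mouse. The sums of WO and MO overlapped through WO4 and WO5, both 294 days old and in batch 2. They include *Cd34*, which rose from a mean of 11.7 FPKM in WO (at most 14.2) to 28.2 FPKM in MO (at least 24.0).

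Markers of microglia and macrophages rose with end stage. Of 10 such genes 8 rose and 0 fell in both WO vs. MO and MY vs. MO, with the largest changes of WO vs. MO in *Cd68* (3.22 ± 0.26, SE), *Aif1* (1.75 ± 0.23), *Ptprc* (1.68 ± 0.14) and *Csf1r* (1.28 ± 0.09). The same 4 genes led in MY vs. MO, *Cd68* by 3.24 ± 0.30, *Aif1* by 1.88 ± 0.26, *Ptprc* by 1.497 ± 0.149 and *Csf1r* by 1.17 ± 0.08 (FDR at most 0.00161). Their summed FPKM, in which *Csf1r* was the most abundant, was 84.6, 88.4, 88.9, 74.1 and 69.2 in WO and 199, 247, 296, 183 and 203 in MO. In WY it was 83.9, 85.7 and 80.3, and in MY 82.1, 88.5 and 83.9. All MO mice stood far above all others, and MO3 was the highest. The part of these cells in the changes of *Pecam1*, *F11r*, *Cd34*, *Icam1* and other genes that leukocytes also express was not tested.

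Astrocyte genes rose as well, 5 of 6 in WO vs. MO and 3 of 6 in MY vs. MO, led in WO vs. MO by *Gfap* (1.60 ± 0.10, SE), the water channel gene *Aqp4* (0.83 ± 0.11) and *Aldh1l1* (0.69 ± 0.09). From MY to MO *Gfap* rose by 1.26 ± 0.12 and *Aldh1l1* by 0.62 ± 0.10, and *Aqp4* was lower in WO than in WY (-0.65 ± 0.10, FDR 0.0281). Their summed FPKM, mostly of *Gfap*, was 1222, 1244, 1329, 1383 and 1149 in WO and 2705, 3490, 3134, 2587 and 2775 in MO, and it was 1748, 1694 and 1630 in WY and 1543, 1565 and 1512 in MY. Motor neuron genes fell, 4 of 5 in WO vs. MO and 4 of 5 in MY vs. MO, with the acetylcholine synthesis gene *Chat* at -0.67 ± 0.06 (FDR 3.13e-05) in WO vs. MO. Their summed FPKM, with *Slc5a7* as the most abundant, was 81.5, 71.5, 73.6, 69.8 and 72.7 in WO and 53.2, 53.7, 42.5, 52.5 and 48.8 in MO, and it was 43.9, 63.7 and 65.6 in WY and 64.9, 68.0 and 62.3 in MY. Of 6 general neuron genes 4 fell in either comparison. As FPKM is a share of all fragments, a rise of RNA from glia lowers the share of other cells, and the part of this in the lower endothelial values was not tested.

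Blood left in the tissue was followed by 5 red cell and 5 platelet genes. Of the red cell genes 0 passed in any comparison, and *Hba-a2* and *Hbb-bs* stayed below 0.1 FPKM in every mouse. Their summed FPKM, mostly of *Hba-a1*, was 128.5, 89.0, 87.5, 127.1 and 105.4 in WO and 14.8, 86.2, 80.4, 83.6 and 55.2 in MO, where MO1 was the lowest of all mice. All 5 MO sums lay below all 5 WO sums, and the median difference of the list was -0.47 in WO vs. MO and -0.36 in MY vs. MO. The part of blood in the endothelial values was not tested. In WY the sum was 90.2, 88.7 and 99.8 and in MY 69.5, 94.0 and 71.2. Of the platelet genes 2 fell in WO vs. MO and 1 rose in MY vs. MO. Of 4 Schwann cell genes *Egr2* alone rose, by 0.82 ± 0.08 (SE, FDR 6.97e-05) in WO vs. MO and by 0.74 ± 0.09 (FDR 0.000988) in MY vs. MO. Of 5 oligodendrocyte genes 3 fell in WY vs. WO, led by *Opalin* (-1.26 ± 0.16, FDR 0.0145) and *Mog* (-0.77 ± 0.10, FDR 0.0178). From MY to MO *Mog* fell by 0.93 ± 0.20 (FDR 0.0118). The summed FPKM of these genes ran from 4071 in WO4 to 22751 in WO5, and *Mbp* made up 0.981% of the sum in WO4 and 60.4% to 88.4% in each other mouse.

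Without MO5 every list gene named with an MO difference above kept its call. The endothelial list then had 10 genes lower and 2 higher in WO vs. MO, the carriers 2 lower and 4 higher, the artery and vein genes 1 and 0, and the mural genes 3 and 2. Without WO4 the endothelial list had 13 lower and 2 higher, the artery and vein genes 4 and 0, and *Cav2* stayed past the FDR but at 0.57 not past 1.5-fold. *Slc16a1* did not pass in WY vs. WO without WO4 (FDR 0.0684). With either mouse left out, every other list count changed by at most 1 gene in a direction.

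On GRCm38, the build to which the reads were aligned as mm10, GENCODE M21 places *Apln* at chrX:48025146-48034853, *Aplnr* at chr2:85136225-85139923, *Cldn5* at chr16:18776847-18778262 and *Pecam1* at chr11:106654217-106750628. Chromosome 4 holds *Slc2a1* (chr4:119108711-119137983), *Mfsd2a* (chr4:122946850-122961188) and *Tek* (chr4:94739289-94874976). Chromosome 5 holds *Abcb1a* (chr5:8660077-8748575), *Kdr* (chr5:75932827-75978458) and *Flt1* (chr5:147561604-147726011). All are protein-coding, and *Cldn5* and *Aplnr* are each covered by 1 block of exon sequence. An antisense gene, *Gm12868*, overlaps an exon of *Slc2a1* by 105 bases, and *Gm42686* on the opposite strand overlaps an exon of *Abcb1a* by 452 bases. The library kit keeps the strand of a fragment, but whether it was used in the authors' quantification is not given in the sources used here, so these values may hold fragments of the opposite strand.

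Promoter sequences from RefSeq (GRCm38.p6) matched 8 of the 10 genes, all but *Aplnr* and *Pecam1*. The 250 bases before the start were searched on both strands for ACGTG and GCGTG, the core letters bound by hypoxia-inducible factors, since the VEGF system, apelin and glucose transport are known to respond to low oxygen. Of 32851 promoters of this length, 38.6% held at least 1 of these motifs, ACGTG in 16.6% and GCGTG in 28.2%. Among the 8 genes *Slc2a1*, *Mfsd2a*, *Flt1* and *Kdr* held a match, and *Apln*, *Cldn5*, *Abcb1a* and *Tek* held none in this window. The window of *Abcb1a*, chr5:8566841-8567090, lies far upstream of the GENCODE start given above. Its lack of a match therefore does not describe the sequence just before that start. Matches were thus found both in genes that were lower in MO than in WO and in genes that did not pass. The 3 sequences below are those of the ligand and the VEGF receptors, which had lower levels in MO than in WO mice, written from 5′ to 3′ on the gene's strand, with matches on either strand in capitals. They lie at chrX:48034854-48035103 (minus strand) for *Apln*, chr5:147726012-147726261 (minus strand) for *Flt1* and chr5:75978456-75978705 (minus strand) for *Kdr*.
Apln: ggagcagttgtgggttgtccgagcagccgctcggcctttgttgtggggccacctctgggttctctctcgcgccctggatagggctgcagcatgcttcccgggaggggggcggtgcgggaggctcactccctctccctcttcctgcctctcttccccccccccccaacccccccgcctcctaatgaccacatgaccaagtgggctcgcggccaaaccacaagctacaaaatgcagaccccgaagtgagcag
Flt1: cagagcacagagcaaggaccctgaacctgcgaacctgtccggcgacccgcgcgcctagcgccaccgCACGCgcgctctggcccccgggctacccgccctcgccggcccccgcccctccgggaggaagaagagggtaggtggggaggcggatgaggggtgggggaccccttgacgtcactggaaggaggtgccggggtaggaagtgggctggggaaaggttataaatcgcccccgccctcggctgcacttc
Kdr: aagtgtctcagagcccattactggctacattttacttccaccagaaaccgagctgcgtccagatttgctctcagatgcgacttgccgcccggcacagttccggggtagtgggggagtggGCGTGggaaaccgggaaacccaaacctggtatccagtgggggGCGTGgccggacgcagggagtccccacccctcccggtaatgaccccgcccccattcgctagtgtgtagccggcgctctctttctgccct
The GCGTG matches of *Kdr* began 131 and 89 bases before the start, and that of *Flt1*, which reads CACGC on this strand, 184 bases before it. The GC content of these windows was 65.2% for *Apln*, 70.4% for *Flt1* and 61.6% for *Kdr*, against a median of 52.4% over all promoters. A match describes letters only, and binding was not measured.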

How the data were processed

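From each of 16 transgenic mice the authors sequenced 1 spinal cord library, with group, age and batch as labelled. The deposited log2 values were made by the authors with Trimmomatic for trimming, TopHat for alignment (mm10) and Cufflinks for FPKM per gene, 1 being added before log2, and they were adjusted for 2 library batches with ComBat. Versions, gene annotation and ComBat covariates are not given in the sources used here. Below 0 lay 915 values, as such an adjustment can give. Because adjusted values carry no record of the batch step, FDRs treat them as if measured directly.

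Each comparison was fitted over all 18167 genes with limma 3.58.1 in R 4.3.3 (lmFit and eBayes, two-sided, Benjamini-Hochberg) on its own 2 groups, and the difference of age effects on all 16 mice. The fits were tested on simulated data. The members and gene lists were chosen with earlier results of these data known. Genes named were the 10 members, in each list those past both thresholds (the 4 largest where more passed), and the 5 most correlated with *Apln* or *Cldn5*. Some genes of these lists are not reported here. Listed symbols were matched to the table, 4 of them through an older name, and 2 had no row. Positions came from GENCODE M21. Plots were drawn with matplotlib 3.10.9 in Python 3.11.15. Alternatives were batch 1 alone, batch as a term, genes with a mean of at least 1, all 4 groups in 1 fit, quantile normalization, log2(FPKM + 0.1) with values below 0 set to 0, an intensity trend, the replicate number as a block, each mouse left out and, chosen after seeing the data, WO mice of 190 days only.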

Additional observations from a re-analysis of the deposited data

Results flagged for a closer look

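In WO mice 1 animal, WO4, lay far below the other 4 in 2 genes. *Cldn5* was at 3.94 in WO4 and at 4.58 or more in the other WO mice, and *Pecam1* was at 2.81 in WO4 and at 3.09 or more in the others. In MO mice *Flt1* was at 2.97 in MO3, above the next mouse at 2.69. These were found by Dixon's ratio of the gap to the range (0.843, 0.885 and 0.803), with a cut that chance passes in about 1 in 20 groups, among 20 groups of 5 mice examined for the 10 genes. As 2 of the 3 marks came from the same mouse, they are not independent. WO4 was 294 days old and belonged to batch 2, and the part of age or batch in its values was not tested.

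The difference with age differed between genotypes, as tested by (MO - MY) - (WO - WY), for *Kdr* at -0.56 ± 0.17 (SE, limma FDR 0.0309) and for *Abcb1a* at -0.34 ± 0.11 (FDR 0.0439). These were 2 of the 9 genes other than *Apln*, while 17.7% of all genes passed, a share near that of the 9. *Kdr* was lower in MO than in MY while WO and WY overlapped, and *Abcb1a* had its highest mean in WO. When mice were left out in turn, *Kdr* passed in 9 of 16 fits and *Abcb1a* in 3 of 16.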

How the results depend on the processing

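*Pecam1*, *Abcb1a*, *Tek*, *Flt1* and *Kdr* passed the FDR in WO vs. MO under every alternative run, with each of the 10 mice left out included. In the comparisons with MO mice the counts below hold *Apln*, whose place in them was fixed by its choice and shows no stability, so they are read for the other 9 genes. Members past both thresholds in WO vs. MO numbered 1 as reported (*Apln* alone), 4 in batch 1 alone (*Pecam1*, *Tek* and *Kdr* added), 2 after quantile normalization (*Kdr*), 3 with log2(FPKM + 0.1) (*Tek*, *Kdr*), 2 with the WO mice of 190 days only (*Flt1*) and 1 to 2 with a mouse left out (*Kdr* without WO1, WO4 or MO4). Past the FDR alone they numbered 6 as reported and 6 to 7 with a mouse left out. In MY vs. MO 1 was past both as reported and 2 with log2(FPKM + 0.1) (*Kdr*), and past the FDR 3 as reported and 1 to 4 with a mouse left out, the lowest without MY2. In WY vs. WO the counts past both and past the FDR, 0 as reported, were 1 and 2 in batch 1 alone and with the WO mice of 190 days only, 1 and 1 with the replicate block, and 0 to 1 and 0 to 3 with a mouse left out. In WY vs. MY both stayed at 0. For WY vs. WO, batch 1 alone and the WO mice of 190 days only were the same fit, as they hold the same mice. Batch and age thus cannot be told apart within WO. For the difference of age effects 3 passed as reported, 4 in batch 1 alone and after quantile normalization (*Pecam1* added), 2 with log2(FPKM + 0.1) and with an intensity trend (*Abcb1a* lost), 5 with the WO mice of 190 days only and 1 to 5 with a mouse left out. Over all genes, calls past both thresholds rose to 1529 in WO vs. MO and 1483 in MY vs. MO with log2(FPKM + 0.1). In WY vs. WO they numbered 46 as reported, 73 in batch 1 alone and with the WO mice of 190 days only, 80 with batch as a term and 7 to 64 with a mouse left out. In WY vs. MY they numbered 1 as reported, 2 with genes of a mean of at least 1 or an intensity trend, 4 in the fit of all groups and 1 to 5 with a mouse left out. In the difference of age effects quantile normalization turned FDR calls over all genes from 1903 higher and 1307 lower to 1682 and 1913. The cause of these shifts was not tested, beyond the fewer mice or genes that an alternative holds.

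Signs turned only for differences near 0. For *Aplnr* in WO vs. MO the values were -0.0678 in batch 1 alone, -0.0496 after quantile normalization and -0.00628 with log2(FPKM + 0.1). For *Cldn5* in WY vs. WO the value was 0.1002 in batch 1 alone, with batch as a term, with the block and with the WO mice of 190 days only. *Tek* in WY vs. WO was at -0.00211 and *Kdr* in WY vs. MY at 0.00683 after quantile normalization. In the difference of age effects *Cldn5* was at -0.171 in batch 1 alone and -0.122 with the WO mice of 190 days only, *Slc2a1* at -0.0842 and -0.0839 in these and at -0.0189 after quantile normalization, and *Mfsd2a* at 0.0837 in batch 1 alone. With a mouse left out, WO vs. MO values ran from -0.146 to 0.213 for *Aplnr* and from -0.0963 to 0.102 for *Mfsd2a*, and MY vs. MO values from -0.102 to 0.0971 for *Cldn5* and from -0.0459 to 0.152 for *Mfsd2a*. WY vs. WO values ran from -0.123 to 0.103 for *Cldn5* and from -0.0179 to 0.0593 for *Tek*. WY vs. MY values ran from -0.201 to 0.0167 for *Slc2a1*, from -0.0141 to 0.0942 for *Mfsd2a* and from -0.0603 to 0.0572 for *Kdr*. The difference of age effects ran from -0.124 to 0.138 for *Cldn5*, from -0.109 to 0.108 for *Slc2a1* and from -0.118 to 0.0798 for *Mfsd2a*.

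Replicate numbers pair nothing by the labels, and same-numbered mice did not deviate together in WO vs. MO (correlations from -0.21 to 0.09) or WY vs. MY (from -0.20 to -0.02), while in MY vs. MO they lay between 0.09 and 0.18 and in WY vs. WO between -0.13 and 0.38. With the replicate block 6 members passed the FDR in WO vs. MO, 3 in MY vs. MO, 1 in WY vs. WO, 0 in WY vs. MY and 3 in the difference of age effects, and over all genes 840, 1108, 63 and 1 passed both thresholds in the 4 comparisons. In MY vs. MO and WY vs. WO old mice 4 and 5 drop out of that fit.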
